A study of Mus musculus with 8 samples.

Results

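The 10 genes described here, which package dietary fat for export, were read in RNA from small intestinal crypts of irradiated mice. They are the rows of the deposited gene table whose symbol is Apob, Mttp, Apoa1, Apoa4, Apoc2, Apoc3, Dgat1, Dgat2, Mogat2 or Sar1b, and all 10 were found among the 17634 genes listed. The rule uses gene symbols and no measured values, but the 10 genes were chosen with earlier results of these data known. Crypt RNA of 4 knockout samples (genotype miR-29ab1-/-, here KO) was compared with that of 4 wild-type samples (WT). All 8 came from C57BL/6N mice 3 days after irradiation, so each comparison is between genotypes among irradiated animals. The labels do not state the age of the mice, the radiation dose or how the deletion was made. The deleted locus encodes miR-29a and miR-29b-1, and the series title places the question in stem cell fate and energy metabolism.

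Enterocytes rebuild triglyceride from absorbed monoglyceride and fatty acids. MOGAT2 joins a fatty acid to monoglyceride, and DGAT1 and DGAT2 complete the triglyceride. MTTP loads it onto apolipoprotein B, smaller apolipoproteins coat the particle, and the GTPase SAR1B starts the vesicle coat (COPII) that takes chylomicrons out of the endoplasmic reticulum. These are features of absorptive cells on the villus and of their maturing precursors, more than of dividing crypt cells.

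All 10 genes were higher in KO crypts. By edgeR's quasi-likelihood test with Benjamini-Hochberg adjustment over the 12908 genes tested, 10 of 10 were called higher (that is, at an adjusted p under 0.05) and 0 lower, where 24.2 percent of all tested genes were called higher and 23.1 percent lower. For 9 of the 10, every KO library lay above every WT library, against 22.7 percent of all tested genes; Sar1b was the exception. Their log2 fold changes (KO over WT) ran from 1.59 to 3.77 with a median of 2.91, beside a median of 0.034 over all tested genes. Levels are given as CPM, a gene's counts relative to the library's size, with sizes scaled by the TMM method, which sets aside genes of extreme level or change. Scaled by total counts instead, the median of all genes shifted to -0.23 and 2089 genes were called higher and 4011 lower, against 3129 higher and 2976 lower with TMM; all 10 genes were higher in both. All 10 passed the low-count filter, and their lowest value in any library was 108 counts, for Apoc3 in WT replicate 4.

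**Figure D1:**
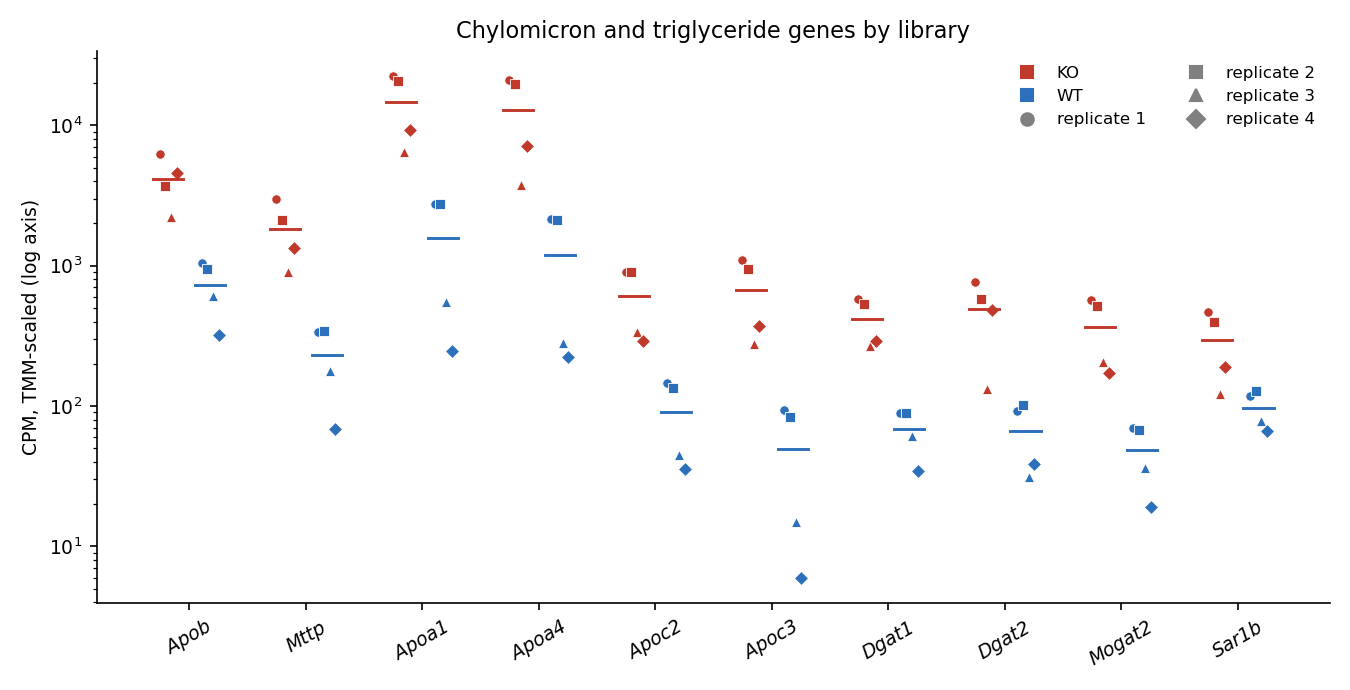
Level of each of the 10 genes in each library, in CPM (log axis). Each point is 1 library, its shape gives the replicate number, and the bar is the group mean; KO points lie above WT points for every gene but Sar1b, where KO replicate 3 (122.7 CPM) is under WT replicate 2 (128.2 CPM).

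The libraries held 9481201 to 14612798 counts in KO and 10719668 to 16231099 in WT. Crypt transcripts were present in both groups. Lgr5+ stem cell markers summed to 290 to 473 CPM in KO and 570 to 677 CPM in WT, with 5 of 8 called lower, and Paneth cell markers to 10400 to 32500 CPM in KO and 9420 to 13100 CPM in WT. Enterocyte markers moved with genotype. Their 20 genes, none of them among the 10, summed to 21500 to 55400 CPM in KO and 2550 to 8980 CPM in WT, and all 20 were called higher, with a median log2 fold of 3.04. Other lists moved too. Of region markers, 7 of 7 for ileum and 4 of 7 tested for proximal small intestine were called higher. The proximal markers summed to 274 to 609 CPM in KO and 126 to 173 CPM in WT. Also called higher were 6 of 7 goblet cell markers, 5 of 5 tested tuft cell markers and 4 of 7 enteroendocrine markers. For dividing cells, 8 of 8 markers were called lower (555 to 907 CPM in KO and 1560 to 2000 CPM in WT). The part of these lists in the results was not tested. In these bulk samples, more enterocytes and more RNA per enterocyte cannot be told apart. Nor can enterocyte content be told apart from genotype, since 78.8 percent of the variance of the marker score lay between the groups. Apolipoproteins are also products of the liver. The 6 hepatocyte markers in the table, of 8 listed, summed to 2.49 to 5.49 CPM in KO and 1.08 to 2.51 CPM in WT, and Alb (albumin) had 1 to 8 counts per library in KO and 0 to 5 in WT. Only 1 of the 6 had enough counts to be tested, and it was not called.

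The sequences shown first are the microRNAs of the deleted locus and a relative, because any direct effect of the deletion on a transcript would be looked for through their seed. The mature sequences are from RefSeq (GRCm38.p6), 5′ to 3′, with the seed (bases 2 to 8) in capitals. The third is made from chromosome 1, and so is a second copy of miR-29b, from Mir29b-2, with the same letters as the one on chromosome 6.
miR-29a-3p, chr6:31062673-31062694, minus strand: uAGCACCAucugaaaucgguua
miR-29b-3p, Mir29b-1, chr6:31063025-31063047, minus strand: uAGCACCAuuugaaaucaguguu
miR-29c-3p, chr1:195037600-195037621, plus strand: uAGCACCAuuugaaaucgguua

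All 3 share 1 seed, whose match in a transcript is TGGTGCT. None of the 10 genes had this match in its longest annotated 3′ UTR (GENCODE M21 on GRCm38), nor in any other protein-coding transcript of theirs with a 3′ UTR. Among 12648 tested genes with an annotated 3′ UTR, 15.5 percent had at least 1 match. The 3′ UTRs of the 10 were short, with a median of 386 bases against 1164 bases over the tested genes. The last 6 of the 7 letters, GGTGCT, were also searched in the longest 3′ UTRs, and other partial matches were not. They were found only in Apoc3, at bases 278 to 283 of its 290-base 3′ UTR, shown here with the 6 letters in capitals.
Apoc3, chr9:46232933-46232957, minus strand, GRCm38: agtggtctctggGGTGCTtcttcct

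The scaffold of the particle and its loading factor were both higher. Apob encodes apolipoprotein B, of which each chylomicron carries a single copy (NCBI gene 238055, chr12:7977648-8016835, plus strand). It stood at 6214, 3700, 2240 and 4550 CPM in KO replicates 1 to 4, against 1051, 948.2, 610.8 and 321.8 CPM in WT replicates 1 to 4. The lowest KO library was 2.13 times the highest WT library. The group means were 4176 ± 1660 CPM in KO and 732.8 ± 332.3 CPM in WT (SD, n = 4 each), a 5.70-fold difference (log2 2.51 ± 0.43 SE, edgeR adjusted p = 0.00196).

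Mttp encodes the large subunit of the microsomal triglyceride transfer protein (NCBI gene 17777, chr3:138089854-138144968, minus strand). Its levels were 2996, 2134, 895.5 and 1341 CPM in KO and 337.1, 343.8, 179.2 and 68.99 CPM in WT. Again the groups did not overlap, and the lowest WT library was replicate 4. The difference was 7.93-fold (log2 2.99 ± 0.56 SE, edgeR adjusted p = 0.00273). The annotation places Trmt10a, a tRNA methyltransferase gene, on the other strand with some overlap. Trmt10a, named after its values were seen, went the other way (edgeR adjusted p = 0.00104), with 75.09 to 87 counts in KO and 230 to 351 in WT. Reads of the shared stretch cannot be assigned to a strand here, because strandedness was not stated; Mttp had 8980 to 34918 counts in KO and 1253 to 4783 in WT.

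The partner subunit of MTTP is protein disulfide isomerase, P4hb, named here after its values were seen. It had 1789 ± 692.7 CPM in KO and 807.8 ± 143.7 CPM in WT (SD, n = 4 each; log2 fold 1.15, edgeR adjusted p = 0.00968). Per length (FPKM, counts per transcript length and library total, the authors' second set of values), P4hb was 1.31 to 1.96 times Mttp in KO libraries and 4.30 to 15.6 times Mttp in WT libraries. The transcripts of the pair were therefore closer to equal in KO, with no overlap between the groups, Mttp having the larger log2 fold (2.99). How many genes separate likewise by their ratio to Mttp was not counted, and protein amounts were not measured.

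The exchangeable apolipoproteins of chromosome 9 had the largest fold changes of the 10. Apoa1, Apoc3 and Apoa4 lie side by side there, 2.5 kb and 5.1 kb apart. APOA1 is the main protein of high-density lipoprotein and is also carried on chylomicrons, APOA4 is made by enterocytes during fat absorption, and APOC3 inhibits clearance of triglyceride-rich particles. Apoa1 (chr9:46228580-46230466, plus strand) had 22540, 20820, 6489 and 9289 CPM in KO replicates 1 to 4, against 2772, 2768, 551.6 and 246.6 CPM in WT. Each genotype held a higher pair, replicates 1 and 2, and a lower pair, replicates 3 and 4, and the groups did not overlap. The fold change was 9.33 (log2 3.22 ± 0.80 SE, edgeR adjusted p = 0.0101).

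Apoa4 (chr9:46240696-46243459, plus strand) followed the same pattern, at 21120, 19870, 3749 and 7121 CPM in KO and 2170, 2119, 280.6 and 222.9 CPM in WT. Here the lowest KO library was 1.73 times the highest WT library. The fold change was 10.8 (log2 3.44 ± 0.90 SE, edgeR adjusted p = 0.0126). Apoc3 (chr9:46232933-46235636, minus strand) had 1095, 951.5, 275.4 and 371.4 CPM in KO and 94.01, 83.23, 15 and 5.946 CPM in WT. It had the highest fold of the 10, 13.6 (log2 3.77 ± 0.89 SE, edgeR adjusted p = 0.00788). It also had the widest spread, 15.8 times between the highest and lowest WT library.

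Apoa1 and Apoa4 together made up 3.48, 3.36, 1.08 and 1.61 percent of all counts in KO replicates 1 to 4, against 0.519, 0.508, 0.0989 and 0.0525 percent in WT. With the other 8 genes the shares were 4.57, 4.16, 1.56 and 2.37 percent in KO and 0.729, 0.706, 0.225 and 0.119 percent in WT. The share was higher in KO in each pair of same-numbered libraries.

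Not every apolipoprotein gene near them was expressed. Apoa5, the next gene of the cluster, 25.2 kb beyond Apoa4, is best known from liver; it had 0 or 1 count in every library. On chromosome 7, Apoc2 ends a row that continues with Apoc4, Apoc1 and Apoe. Apoc2 encodes the cofactor of lipoprotein lipase (chr7:19671579-19677941, minus strand) and had 909.3, 897.4, 336.3 and 292.8 CPM in KO and 146.6, 134.3, 44.88 and 35.35 CPM in WT. Its fold change was 6.75 (log2 2.76 ± 0.59 SE, edgeR adjusted p = 0.00490). Of its neighbours, Apoc4 had 3 to 12 counts in KO and 0 or 1 in WT, and Apoc1 had 1 count in 1 library. Apoe, which many cell types make, had 11.2, 7.69, 41.5 and 34.5 CPM in KO and 15.4, 10.6, 31.4 and 18.3 CPM in WT, with overlapping groups (edgeR adjusted p = 0.651). In both genotypes Apoe was highest in replicates 3 and 4, where Apoa1, Apoa4, Apoc2 and Apoc3 were lowest. The same replicates had the most fibroblast marker transcripts, 194 and 200 CPM in KO and 172 and 50.6 CPM in WT, against 15.8 to 16.7 CPM in KO and 13.5 to 21.7 CPM in WT in replicates 1 and 2; the part of these cells in any result was not tested.

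**Figure D2:**
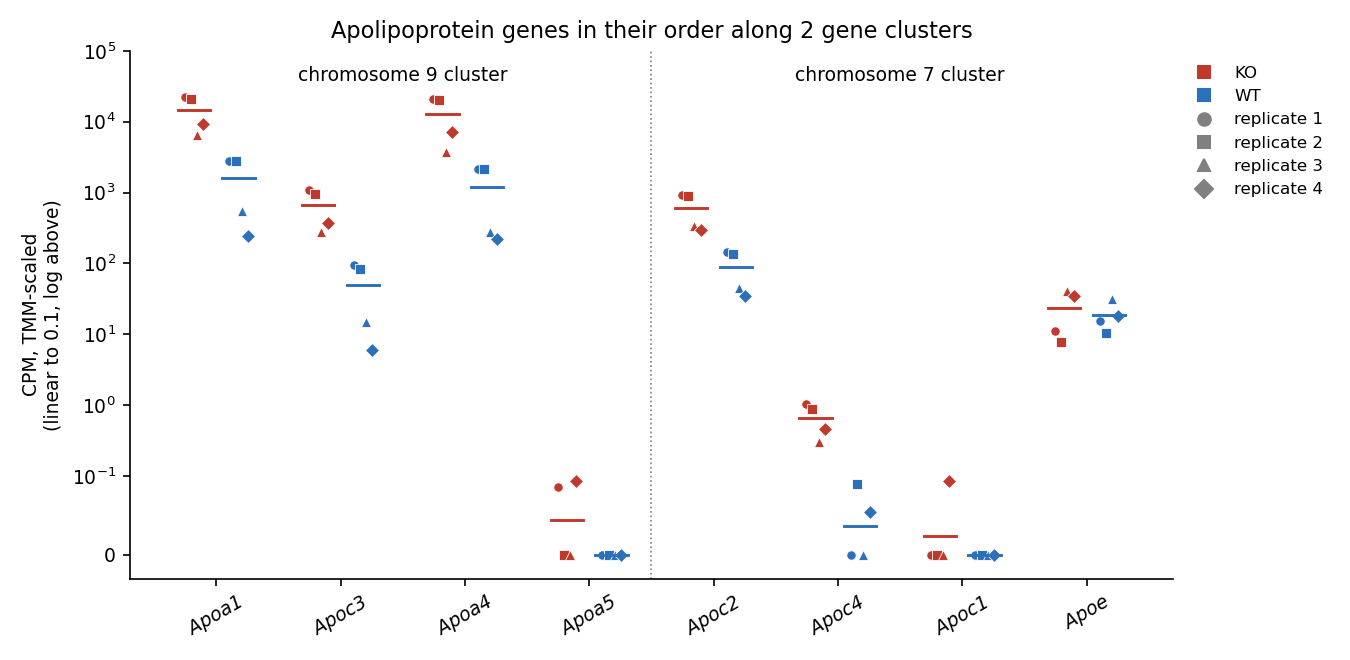
Apolipoprotein genes in their order along the chromosome 9 cluster (left) and the chromosome 7 cluster (right), in CPM per library (axis linear up to 0.1 and logarithmic above), with group means as bars. Apoa1, Apoc3, Apoa4 and Apoc2 separate by genotype, Apoa5 and Apoc1 are at or near 0, and Apoe overlaps between KO and WT.

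In 1 library, KO replicate 1, the deposited value of Apoc2 was not whole (10597.13), and the remaining 14.87 counts stood under Gm44805, a predicted gene of the same strand that overlaps it and Apoc4. In the other 7 libraries Gm44805 had 0 counts. Apoa4 and Mogat2 overlap antisense predicted genes in the annotation, for which no count was used here.

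The triglyceride-forming acyltransferases rose by similar factors. Dgat1 and Dgat2 encode unrelated enzymes for the same last step, and Dgat2 and Mogat2 belong to 1 family and are neighbours on chromosome 7, 36.4 kb apart. Dgat1 (chr15:76502015-76511953, minus strand) had 578.4, 530.4, 267.9 and 290.8 CPM in KO, against 89.22, 88.61, 61.56 and 34.69 CPM in WT. Its lowest KO library was 3.00 times its highest WT library, the widest gap of the 10. The fold change was 6.09 (log2 2.61 ± 0.37 SE, edgeR adjusted p = 0.00122, the smallest of the 10).

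Dgat2 (chr7:99153658-99182719, minus strand) had 769.3, 582.1, 131.6 and 485.6 CPM in KO and 92.95, 101.8, 31.38 and 38.82 CPM in WT. KO replicate 3 was low for its group and only 1.29 times the highest WT library. The fold change was 7.44 (log2 2.90 ± 0.58 SE, edgeR adjusted p = 0.00366). Mogat2 (chr7:99219084-99238619, minus strand) had 567.9, 520.2, 207.4 and 172.0 CPM in KO and 69.98, 67.62, 36.34 and 19.11 CPM in WT. Its lowest library in each genotype was replicate 4, where Dgat2 was not lowest in either, so the neighbours did not share every dip. Its fold change was 7.62 (log2 2.93 ± 0.53 SE, edgeR adjusted p = 0.00249).

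Per length, Dgat1 and Dgat2 were close to equal in most libraries, and the groups overlapped in this balance. The FPKM ratio of Dgat1 to Dgat2 was 0.994, 1.21, 2.74 and 0.792 in KO replicates 1 to 4, against 1.27, 1.20, 2.51 and 1.13 in WT. In both genotypes replicate 3 stood out, and Dgat2 was lowest there, at 65.2 FPKM in KO and 17.5 FPKM in WT. In WT replicate 4 Dgat2 was nearly as low (20.31 FPKM), but Dgat1 was at 22.99 FPKM, against 43.89 FPKM in WT replicate 3. The ratio of Mogat2 to Dgat1 was 0.577 to 0.959 in KO and 0.560 to 0.763 in WT, again overlapping.

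Sar1b rose least. It encodes the SAR1 form whose loss in humans causes chylomicron retention disease (chr11:51763687-51791925, plus strand). It had 468.7, 394.6, 122.7 and 189.6 CPM in KO and 117.3, 128.2, 78.11 and 66.68 CPM in WT. The groups overlapped through KO replicate 3, although KO was above WT in each of the 4 same-numbered pairs, by 1.57 to 4.00 times. The fold change was 3.01 (log2 1.59 ± 0.42 SE, edgeR adjusted p = 0.0126).

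Its near-identical relative Sar1a moved in the other direction, at 73.02, 82.21, 80.48 and 75.69 CPM in KO and 98.45, 101.7, 89.53 and 87.05 CPM in WT (log2 fold -0.27, edgeR adjusted p = 0.0405). The Sar1a log2 fold kept its sign but lost its call in 6 of the 8 fits that left out 1 library, all but those without KO replicate 2 or WT replicate 4 (edgeR adjusted p = 0.0521 to 0.104). Per length, Sar1b was 14.2, 10.6, 3.34 and 5.49 times Sar1a in KO libraries, against 2.62, 2.80, 1.92 and 1.68 times in WT libraries. The authors' counting method is not given in the sources used here, so reads shared between the paralogs make both values uncertain.

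**Figure D3:**
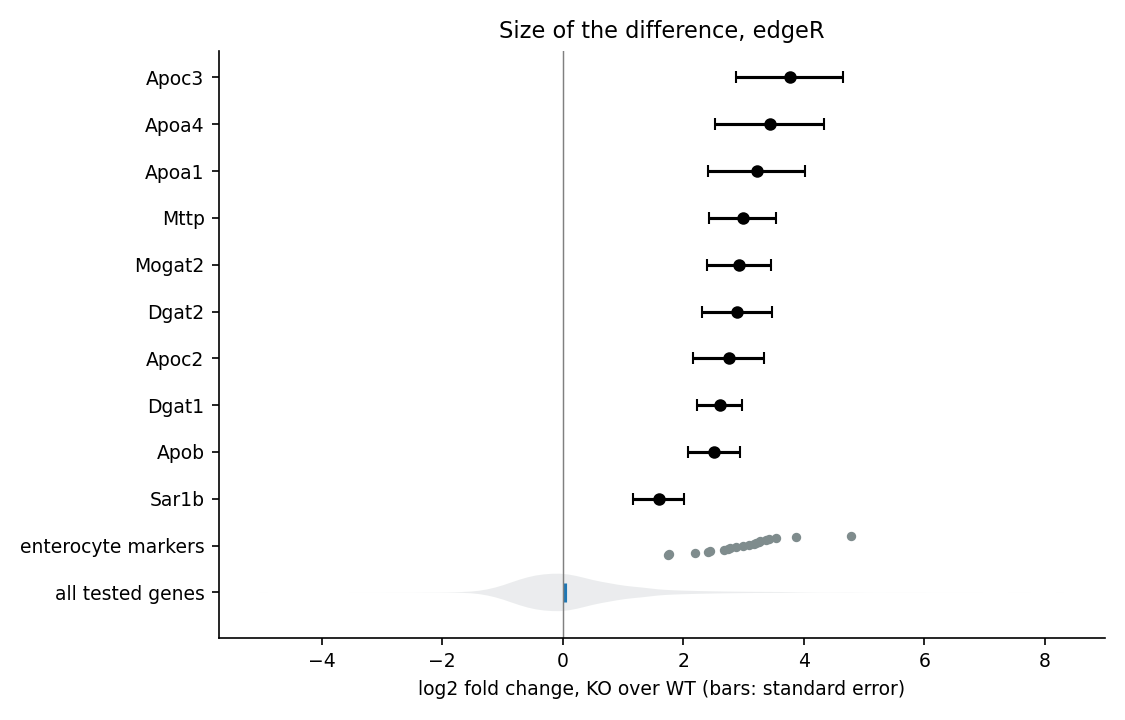
Log2 fold change, KO over WT, of the 10 genes with standard errors (edgeR), above the 20 enterocyte markers as points and all 12908 tested genes as a density with its median. The 10 genes span 1.59 (Sar1b) to 3.77 (Apoc3), inside or just under the span of the enterocyte markers, 1.75 to 4.78.

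The replicate numbers carried a shared pattern. KO replicate 1 was the highest KO library for all 10 genes, and KO replicate 3 the lowest for 8 of them. WT replicate 1 or 2 was the highest WT library for all 10, and WT replicate 4 the lowest for 9. The enterocyte score (mean log2 level of the 20 markers) ran the same way, at 11.02, 10.61, 9.48 and 10.24 in KO replicates 1 to 4 and 8.06, 8.12, 6.72 and 5.64 in WT. Within same-numbered pairs the genes rose to different degrees. The KO-over-WT ratio of Apoc2 was 6.20, 6.68, 7.49 and 8.28 in pairs 1 to 4. That of Apoc3 was 11.6, 11.4, 18.4 and 62.5, so its 4 pairs did not give 1 size.

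Each gene was also set against the enterocyte markers of its own library, by a subtraction that takes the gene to move in step with them. This was a description with no test, on the scale of log2 level minus the enterocyte score. Apoc3 was at -1.18 ± 0.44 in KO and -2.24 ± 0.73 in WT (SD, n = 4 each), a difference of 1.06, and Apoa4 and Apoa1 differed by 0.61 and 0.48. Mttp kept nearly the same distance, 0.36 ± 0.17 in KO and 0.47 ± 0.21 in WT. Mogat2, Apoc2, Dgat2, Dgat1 and Apob differed by -0.31 to -0.65. For these 9 genes the groups overlapped. Sar1b was at -2.34 ± 0.32 in KO and -0.57 ± 0.75 in WT, and its KO libraries all lay below its WT libraries. How many of all tested genes did the same was not counted. The markers had a median log2 fold of 3.04 and all tested genes 0.034, and a gene that rose less than the markers falls on this scale. In the edgeR fit with the score as a covariate, 0 of the 10 genes and 0 of all tested genes were called; at an unadjusted p under 0.05 there were 0 of the 10 and 2559 of all tested genes.

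**Figure D4:**
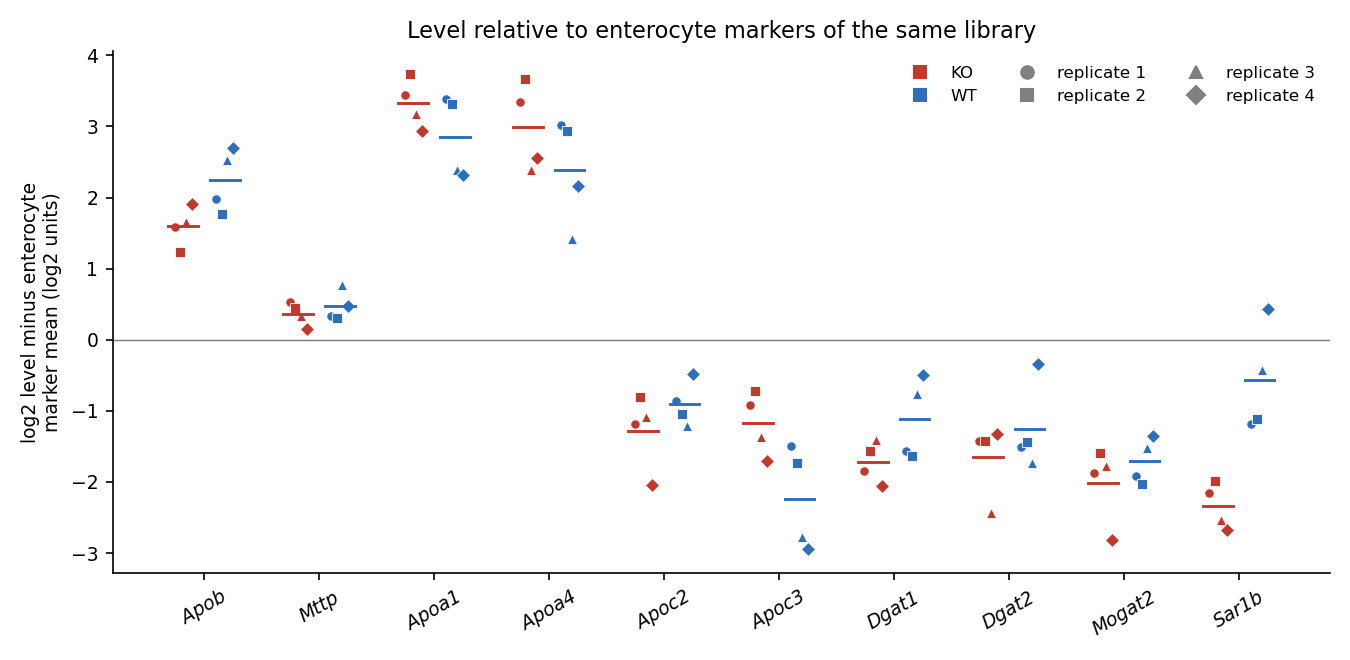
Log2 level of each gene minus the mean log2 level of 20 enterocyte markers in the same library (log2 units), with group means as bars. KO and WT overlap for 9 genes. For Sar1b the KO libraries (-2.67 to -1.99) lie below the WT libraries (-1.18 to 0.43), and how many of all tested genes do so was not counted.

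The order of the levels per length differed little at the top. In KO, FPKM was 14800 ± 6610 for Apoa1, 7170 ± 4270 for Apoa4, 1420 ± 741 for Apoc3, 967 ± 404 for Apoc2 and 418 ± 162 for Mttp (SD, n = 4 each), and each was above the next gene of the order in all 4 libraries. Below these came Apob (270), Dgat1 (229), Sar1b (225), Dgat2 (201) and Mogat2 (193), whose order changed between libraries. Over the group, only the step between Apoa4 and Apoc3 was wider than the spread; the ranges of all other neighbours overlapped. In WT the ranges of all neighbours overlapped, and the order of the means was Apoa1 (1950), Apoa4 (823), Apoc2 (178), Apoc3 (130), Sar1b (93.9), Mttp (65.4), Apob (57.7), Dgat1 (46.3), Dgat2 (33.4) and Mogat2 (31.6). By these means Sar1b stood below Mttp and Apob in KO and above both in WT. Apob was 1.09, 0.767, 1.51 and 1.99 times Sar1b in KO replicates 1 to 4, so KO replicate 2 had the other order. In WT libraries Apob was 0.4 to 0.74 times Sar1b. Mttp was 1.59 to 2.16 times Sar1b in KO libraries, against 0.309 to 0.851 times in WT libraries. Apoc3 likewise was 1.01 to 1.64 times Apoc2 in KO libraries and 0.209 to 0.940 times in WT libraries, with no overlap.

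The ratio of the cluster neighbours Apoa1 and Apoc3 also separated the genotypes. It was 9.65, 10.2, 11.2 and 11.9 in KO replicates 1 to 4 and 14.0, 15.2, 17.4 and 19.8 in WT, so every KO library was below every WT library. Within each genotype it rose from replicate 1 to replicate 4. Genes of unequal fold can separate in this way, and Apoc3 had the larger log2 fold (3.77, against 3.22 for Apoa1). How many gene pairs separate likewise was not counted, for this ratio or the other ratios given. The ratio of Apoa4 to Apoa1 was 0.325 to 0.534 in KO and 0.286 to 0.510 in WT, which overlapped. As deviations from the group means over 8 libraries, Apoc3 and Apoa1 correlated at Pearson r = 1.00 (rounded) and Apoa4 with both at 0.98. These points share libraries and depth, and the values are descriptive.

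By the same measure, the genes most like Apob outside the set were Rpain (0.987), Mxd1 (0.985), Dgkq (0.985), Slc30a10 (0.983) and Lhfpl2 (0.981), of 10679 genes ranked. Rpain did not pass the test between genotypes (log2 fold 0.04, edgeR adjusted p = 0.859), and the other 4 were higher in KO, with log2 folds of 1.76 to 3.49. Mxd1 encodes a MYC antagonist, Dgkq a diacylglycerol kinase and Slc30a10 a manganese exporter. Among the 10 genes, the closest to Apob was Mttp, at 0.94.

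Promoter windows of 300 bases around the RefSeq start (GRCm38.p6) were matched for 6 of the 10 genes: Apob, Mttp, Apoa1, Apoa4, Apoc2 and Sar1b. RefSeq and GENCODE place some starts apart: the RefSeq start lay 1550 bases downstream of the GENCODE gene start for Mttp, 148 for Apoa4, 50 for Apoa1 and 29 for Apob, so the Mttp window lies inside the gene span given above. The windows are described because the genes moved together, and both strands were searched. TATAAA was found in Apob, beginning at -60 relative to the RefSeq start and -31 relative to the GENCODE start, and in none of the other 5; 13.6 percent of 32851 promoter windows hold it. The HNF4 letters CAAAGTCCA (0.47 percent of windows), the GATA letters AGATAA (11.2 percent) and the CDX letters TTTATGG (2.75 percent) and TTTATTA (4.93 percent) were in none of the 6. Nor were the direct repeat of AGGTCA with 1 base between (0.04 percent) or a short and a long form of the HNF1 motif (0.40 and 0.01 percent), the short one lying within the long. Only these letters were searched, so sites for the same factors in other letters would be missed, and their absence is not shown. A variant HNF4 sequence, CAAAGTTCA (0.39 percent of windows), was searched after the windows had been read, and lay in Apoa4 at -182 relative to the RefSeq start and -34 relative to the GENCODE start. The 2 windows with a match are given on the plus strand with the match in capitals.
Apob, chr12:7977427-7977726: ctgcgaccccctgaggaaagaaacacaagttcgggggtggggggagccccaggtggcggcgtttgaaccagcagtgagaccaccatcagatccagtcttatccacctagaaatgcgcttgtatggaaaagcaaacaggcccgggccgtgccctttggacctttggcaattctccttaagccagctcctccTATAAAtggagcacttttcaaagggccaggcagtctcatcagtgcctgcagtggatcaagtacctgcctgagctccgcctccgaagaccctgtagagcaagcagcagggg
Apoa4, chr9:46240594-46240893: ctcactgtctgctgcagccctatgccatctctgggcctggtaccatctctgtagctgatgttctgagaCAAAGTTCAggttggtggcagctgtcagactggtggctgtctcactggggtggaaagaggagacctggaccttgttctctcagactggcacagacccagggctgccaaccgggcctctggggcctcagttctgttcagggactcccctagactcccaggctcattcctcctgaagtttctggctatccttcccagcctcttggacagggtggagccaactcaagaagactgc

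Genes that work with apolipoprotein B in the endoplasmic reticulum were mostly higher. Of 12 assembly partners, 10 rose and 2 fell, with a median log2 fold of 1.34. For this list and those below, the shares over all tested genes were 24.2 percent called higher and 23.1 percent called lower. The 3 with the smallest p among the higher were A1cf, a cofactor of Apob mRNA editing (69.53 ± 7.843 CPM in KO and 24.14 ± 6.698 CPM in WT, SD, n = 4 each; log2 fold 1.53), Cideb, a lipid droplet protein that takes part in lipidation of the particle (216.6 ± 98.67 CPM in KO and 24.36 ± 15.11 CPM in WT; log2 fold 3.16), and Pla2g12b (log2 fold 2.64), with edgeR adjusted p-values of 0.00116 to 0.00247. Apobec1, the editing enzyme that gives the intestinal short form of apolipoprotein B, and Tm6sf2, both named after their values were seen, had log2 folds of 1.55 and 2.58. The 2 that fell were general folding factors. Hspa5, the chaperone BiP, had 495.0 to 599.0 CPM in KO and 688.4 to 747.4 CPM in WT (log2 fold -0.43, edgeR adjusted p = 0.0153), and Pdia3, a disulfide isomerase, 595.7 to 674.3 CPM in KO and 785.9 to 883.7 CPM in WT (log2 fold -0.40, edgeR adjusted p = 0.0217). The Pdia3 log2 fold lost its call without WT replicate 1, 2 or 3 (edgeR adjusted p = 0.0534 to 0.0644).

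The vesicle coat changed in part. Of 15 COPII and exit-site genes, 8 rose, 1 fell (Sar1a) and 6 were not called, with a median log2 fold of 0.61. The leading ones were Sec24d, a cargo-binding coat subunit (231.1 ± 87.91 CPM in KO and 56.08 ± 8.102 CPM in WT, SD, n = 4 each; log2 fold 2.04), Sec23a, its inner-coat partner (202.0 ± 70.09 CPM in KO and 64.3 ± 3.66 CPM in WT; log2 fold 1.65), and Mia2, an exit-site receptor for large cargo (43.11 ± 17.76 CPM in KO and 10.19 ± 1.773 CPM in WT; log2 fold 2.08), at edgeR adjusted p = 0.00115 to 0.00123. Sec23a had 286.9, 229.8, 131.5 and 159.6 CPM in KO replicates 1 to 4 and 67.16, 66.9, 63.83 and 59.3 CPM in WT, so the KO libraries were more spread than the WT libraries.

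**Figure D5:**
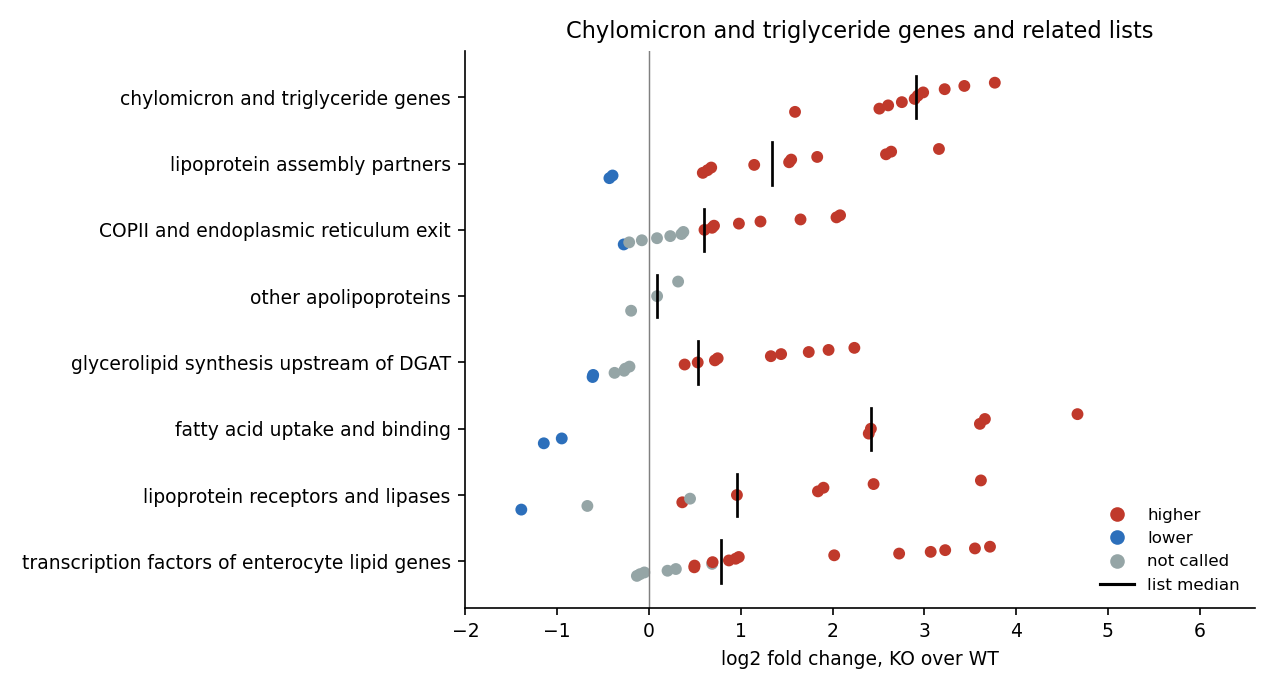
Log2 fold change, KO over WT, of the 10 genes and of the tested genes of 7 related lists, each point 1 gene and each black bar a list median. Red points were called higher, blue points lower and grey points neither, by edgeR at an adjusted p under 0.05; all 10 chylomicron and triglyceride genes are red, and every list but the other apolipoproteins holds red points.

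Upstream of the DGAT step, 9 of 15 tested genes of fatty acid activation and glycerolipid synthesis rose, 2 fell and 4 were not called (median log2 fold 0.53). Gpat3, a glycerol-3-phosphate acyltransferase, had 106.0 ± 39.52 CPM in KO and 22.57 ± 10.65 CPM in WT (SD, n = 4 each; log2 fold 2.24, edgeR adjusted p = 0.00239). The phosphatidate phosphatase Lpin3 and the acyl-CoA synthetase Acsl5 had log2 folds of 1.74 and 1.96. Acsl5 was the most abundant of the list, at 1715 ± 884.4 CPM in KO and 441.7 ± 135.2 CPM in WT. The 2 that fell were the acyltransferases Agpat5 (39.73 to 58.16 CPM in KO and 72.32 to 85.11 CPM in WT) and Agpat4 (26.77 to 36.21 CPM in KO and 32.99 to 58.12 CPM in WT, edgeR adjusted p = 0.0226). The Agpat4 log2 fold lost its call without WT replicate 1, 2 or 4 (edgeR adjusted p = 0.054 to 0.0623). With total-count scaling this list had 7 higher and 4 lower.

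Of 7 genes of fatty acid uptake and binding, 5 rose and 2 fell. Cd36, a fatty acid translocase, had the largest log2 fold of the list, 4.67, at 63.45 ± 19.1 CPM in KO and 2.556 ± 1.28 CPM in WT (SD, n = 4 each). The binding proteins Fabp1 and Fabp2 and the transport proteins Slc27a2 and Slc27a4 followed at 3.66, 3.61, 2.42 and 2.40. Got2, a mitochondrial aminotransferase that also binds fatty acids, had 112.8 to 156.3 CPM in KO and 244.4 to 282.8 CPM in WT, and the lipoprotein receptor Scarb1 had 5.663 to 10.76 CPM in KO and 13.51 to 24.5 CPM in WT; their log2 folds were -0.95 and -1.15 (edgeR adjusted p = 0.00116 and 0.00532). Other genes that bear an apolipoprotein name were scarce. Of 10, only Apoe, Apoo and Apool had enough counts to be tested, and none of these 3 was called. With total-count scaling 1 of the 3 was called lower.

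Of 18 transcription factors of enterocyte lipid genes, 12 rose, 0 fell and 6 were not called (median log2 fold 0.78). The smallest p-values were those of Ppargc1a, a coactivator of oxidative metabolism (30.56 ± 8.325 CPM in KO and 7.532 ± 1.601 CPM in WT, SD, n = 4 each; log2 fold 2.02), and Nr1h3, the oxysterol receptor LXR alpha (37.81 ± 16.98 CPM in KO and 5.749 ± 1.44 CPM in WT; log2 fold 2.73), at edgeR adjusted p = 0.00108 and 0.00115. Nr0b2, a repressor induced by bile acids, had 23, 47, 22 and 10 counts in KO and 3, 2, 3 and 2 counts in WT. The HNF4 pair, named after their values were seen, differed in size. Hnf4a, the main HNF4 form, had 787.7 ± 91.92 CPM in KO and 642.7 ± 58.86 CPM in WT and was not called (log2 fold 0.29, edgeR adjusted p = 0.110), while Hnf4g had 334.5 ± 181.2 CPM in KO and 39.89 ± 12.74 CPM in WT (log2 fold 3.07, edgeR adjusted p = 0.00127). Creb3l3, an endoplasmic reticulum-bound factor of apolipoprotein genes, had a log2 fold of 3.23 (edgeR adjusted p = 0.00464).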

How the data were processed

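TRIzol RNA of small intestinal crypts gave 8 libraries. The submitters' processing notes list HISAT2 and DESeq2 but neither their role nor version, and the counting program, genome build, annotation and strandedness are not given in the sources used. Per the file headers, the authors deposited read counts per gene and library, treated here as estimated counts and rounded, because 8.04 to 9.18 percent of values were not whole. The headers give no unit for the second deposited set. These deposited values were taken as FPKM, per length and library total, as made by the authors in a way no header records: over 6540 genes, the median value per count tracked 1 over the library's total, with a largest departure of 0.742 percent.

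The genotype test was edgeR 4.0.16 under R 4.3.3, with filterByExpr, TMM factors, glmQLFit and glmQLFTest, genotype as the only term, and Benjamini-Hochberg adjustment over all 12908 genes at 0.05. Standard errors are the absolute log2 fold over the square root of F. Log2 levels add 0.5 CPM. Alternatives used other scaling factors and filters, limma 3.58.1, DESeq2 1.42.0, FPKM with pseudocounts of 1 and 0.1, an enterocyte covariate, a replicate block and left-out libraries.

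The 10 genes and all lists were chosen with earlier results of these data known. From each list the text names up to 3 called genes with the smallest p per direction, or all where 5 or fewer were called in it; other genes are marked as named after their values were seen. Likeness to Apob was ranked over genes with a mean of at least 50 counts.

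Same-numbered libraries of KO and WT deviated together from their group means (r = 0.33 to 0.53), while libraries of different numbers ranged from -0.50 to 0.48, the highest being KO 1 with WT 2. As every same-numbered pair was positively related, the numbers were read as pairing, a hint from the data, since what a number stands for is not in the labels. The values printed come from the fit without pairs, and a replicate block was an alternative. No library was a mere second count of another, since the closest pair, WT replicates 1 and 2, differed by 5.92 times the sampling variance. The other pairs within a genotype differed by 28.8 to 116 times. These values cannot show whether 2 libraries came from the same RNA or animal. The labels do not tie each sample to a separate animal, so the p-values describe the spread among 8 samples, which may be technical.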

Additional observations from a re-analysis of the deposited data

How the results depend on the processing

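All 10 genes were called higher in 20 of 21 alternatives: DESeq2, limma, other scaling factors and filters, FPKM, replicates 1 to 3 alone, the replicate block and each library left out. With the replicate block their log2 folds were 1.45 (Sar1b) to 4.24 (Apoc3), 3672 genes were called higher and 3554 lower, and no call changed among the 10 or the other named genes. In the remaining alternative, the enterocyte score as a covariate, 0 of the 10 were called, and 0 genes were higher and 0 lower (lowest adjusted p = 0.11). The Apoa1 log2 fold, Apoa4 log2 fold, Apoc2 log2 fold, Apoc3 log2 fold and Sar1b log2 fold were then -0.837, -0.969, -0.02, -0.712 and -0.363. The Slc27a4 log2 fold, Fabp2 log2 fold, Tm6sf2 log2 fold, Hnf4a log2 fold and Creb3l3 log2 fold were -0.35, -0.666, -0.123, -0.049 and -0.125. The Apoe log2 fold, never called, was -0.15, -0.179 and -0.15 in the limma fits of log2(FPKM + 1), log2(FPKM + 0.1) and log2(FPKM + 1) without a filter, -0.029 in replicates 1 to 3 alone, and -0.097 to 0.674 with 1 library left out. The cause was not tested. Those 3 FPKM fits had 1926, 1922 and 2083 genes higher. Leaving out a library gave 2366 to 3184 genes higher and 2380 to 3228 lower. In replicates 1 to 3 alone the Hspa5 log2 fold, Pdia3 log2 fold and Sar1a log2 fold lost their calls (edgeR adjusted p = 0.0528, 0.0859 and 0.0734), and with a mean of at least 50 counts so did that of Sar1a (0.0508).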

Other observations

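Genes that act on triglyceride-rich particles or droplets after assembly also differed. Of 9 tested lipoprotein receptors and lipases, 6 were higher in KO crypts, 1 was lower and 2 were not called by edgeR. Lipe, hormone-sensitive lipase, had 90.7, 70.27, 44.18 and 52.67 CPM in KO and 16.56, 15.69, 7.829 and 7.488 CPM in WT (log2 fold 2.45, edgeR adjusted p = 0.00116). Lrp1, an endocytic receptor for remnant particles, had 77.26 to 128.1 CPM in KO and 19.82 to 49.01 CPM in WT (log2 fold 1.90, edgeR adjusted p = 0.00161), and Lipa, lysosomal acid lipase, 42.88 to 114.5 CPM in KO and 14.87 to 26.5 CPM in WT (log2 fold 1.84, edgeR adjusted p = 0.00231). Lrp8, a receptor of the LDL receptor family, fell, with 13.08 to 27.13 CPM in KO and 42.24 to 62.71 CPM in WT (log2 fold -1.39, edgeR adjusted p = 0.00316).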
